A study of Mus musculus with 6 samples.

Results

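Transcripts of 6 genes were examined in the cochlea of pre-hearing mice whose hair cells overexpressed the K+ channel Kir2.1. They were Iqsec3, its family members Iqsec1 and Iqsec2, and the inhibitory postsynapse genes Gphn, Nlgn2 and Gabra2. The set was chosen by gene symbol because Iqsec3 had one of the highest fold changes between the genotypes, and the other 5 genes were added for their place in the same family or synapse. These are 6 of the 24411 gene symbols counted in each library, and 5 of the 6 passed the filter on low counts, which kept 15303 genes. Since the choice rests on this contrast, the values of the 6 genes are given as a description, without a p-value.

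The sensory epithelium of the cochlea was dissected at postnatal day 9 (P9) from compound heterozygous Kir2.1-OE mice, which carried Otof-rtTA and tetO-Kir2.1-IRES-tau-lacZ, and from littermate controls that were heterozygous for Otof-rtTA alone. Both groups were exposed to doxycycline (DOX), which the mothers received at 0.5 mg/ml in their water, and were on the C57BL/6N background. In this system the Otof promoter drives rtTA, in the cochlea in hair cells and mainly in the inner hair cells (IHCs), and DOX then turns on the Kir2.1 transgene where rtTA is present. Each group had 3 libraries, each from 1 pool of 8 cochleae of 4 mice, so the pool and not the mouse is the replicate. Between 35430940 and 41205047 reads were assigned to genes in each library. Kcnj2, which encodes Kir2.1, had a normalized count of 3213 ± 872 in Kir2.1-OE and 230 ± 5.16 in control libraries (SD, n = 3), where a normalized count is the count scaled to an average library by TMM (trimmed mean of M-values).

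At inhibitory synapses, gephyrin, the product of Gphn, forms a scaffold under the membrane that anchors GABA-A and glycine receptors opposite the release sites. Neuroligin-2, the product of Nlgn2, is an adhesion protein of this postsynapse that binds presynaptic neurexins, and Gabra2 encodes the alpha2 subunit of GABA-A receptors. The IQSEC proteins share a Sec7 domain, with which they load GTP onto ARF GTPases, regulators of membrane traffic and of the actin cytoskeleton. IQSEC3 binds gephyrin, whereas IQSEC1 and IQSEC2 are known mainly from excitatory postsynapses. In the pre-hearing cochlea, IHCs contact spiral ganglion neurons and also receive direct synapses of efferent fibres.

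Iqsec3 lies on the reverse strand at chr6:121372933-121473678 (mm10, ENSMUSG00000040797.16), and its longest annotated transcript has 5 exons and 8067 nt. The 250 bases before the start of Iqsec3 and of Gabra2 are printed because they belong to the member with the highest fold change and to the member with almost no reads. Both are written 5′ to 3′ on the strand of the gene from the RefSeq annotation of GRCm38.p6 (the mm10 assembly), at chr6:121473679-121473928 and chr5:71095850-71096099, and capitals mark a GC box (GGGCGG on either strand).
Iqsec3: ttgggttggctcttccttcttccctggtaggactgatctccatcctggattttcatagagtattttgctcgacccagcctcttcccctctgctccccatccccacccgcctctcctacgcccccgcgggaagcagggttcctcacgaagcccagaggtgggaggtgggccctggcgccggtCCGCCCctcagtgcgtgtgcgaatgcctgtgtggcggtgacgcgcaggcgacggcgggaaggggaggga
Gabra2: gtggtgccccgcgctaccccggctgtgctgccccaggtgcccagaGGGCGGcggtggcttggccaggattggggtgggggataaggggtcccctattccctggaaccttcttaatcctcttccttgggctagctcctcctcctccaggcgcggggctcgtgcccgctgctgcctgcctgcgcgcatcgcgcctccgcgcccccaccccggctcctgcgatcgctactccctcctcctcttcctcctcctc
The Iqsec3 window had 64.8% GC and 17 CG dinucleotides, and the Gabra2 window had 70.0% GC and 18. Both were above the medians of the 32851 windows of all genes, which were 52.4% GC and 6 CG dinucleotides. Each of the 2 windows held 1 GC box, a motif present in 32.7% of all windows. The letters TGACG, the core of a cAMP response element, occurred once in the Iqsec3 window and in 17.8% of all windows on either strand. No TATA box (TATAAA on either strand, 12.4% of all windows) was found in any of the 8 windows of the 6 genes. A match is a stretch of letters and was not tested for function, and windows with similar base composition thus preceded a well-detected gene and a gene with at most 4 reads per library.

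Iqsec3 had normalized counts of 1003, 502 and 1091 in Kir2.1-OE replicates 1, 2 and 3, and of 142, 213 and 71.3 in control replicates 1, 2 and 3. All Kir2.1-OE libraries were above all control libraries, with Kir2.1-OE replicate 2 nearest to the controls. The means were 865 ± 318 and 142 ± 70.7 (SD, n = 3), a 6.09-fold difference. In the fit across all genes the log2 fold change was 2.60 (SE 0.376), the 7th highest of the 15303 genes tested. Of the 5 genes that passed the filter, Iqsec3 also varied most among pools of 1 group, with a coefficient of variation of 36.7% in Kir2.1-OE and 49.7% in controls. With each library left out in turn, its log2 fold change lay between 2.28, without control replicate 3, and 3.01, without control replicate 2.

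Iqsec1 (chr6:90656088-90988685, reverse strand, ENSMUSG00000034312.14) encodes an exchange factor for ARF6. Its normalized counts were 4189, 3708 and 3581 in Kir2.1-OE and 1540, 1839 and 1530 in control libraries. The groups did not overlap, and the log2 fold change was 1.22 (SE 0.0953), from means of 3826 ± 321 and 1636 ± 176. The span of an annotated antisense gene, Gm44123, overlaps that of Iqsec1. Whether their exons overlap was not examined and no strand setting is given in the sources used here, so the genes may share some reads.

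Iqsec2 (chrX:152144268-152225236, forward strand, ENSMUSG00000041115.16), the X-linked member of the family, had normalized counts of 1018, 1043 and 1027 in Kir2.1-OE and 675, 593 and 636 in control libraries. Its Kir2.1-OE pools lay close together, with a coefficient of variation of 1.23% against 6.45% in controls, and the groups did not overlap. The log2 fold change was 0.70 (SE 0.0825). With TMM scaling alone the 3 IQSEC genes were all higher in Kir2.1-OE, Iqsec3 the most and Iqsec2 the least, but with a correction for transcript length and GC content, described with the fold changes, Iqsec2 turned to -0.08 and Iqsec1 was no longer called (0.47). Their proportions also differed between the libraries. Of the summed level of the 3 genes per kb of transcript, Iqsec3 made up 15.3%, 8.92% and 18.0% in the Kir2.1-OE libraries, in order of replicate number, against 5.49%, 7.45% and 2.90% in the controls, without overlap. Since Iqsec3 was chosen for its high fold change, this difference follows in part from the choice. The shares rest on the longest transcripts. With the median transcript length, an alternative chosen after seeing the data, Iqsec3 made up 1.38% to 3.05% in Kir2.1-OE and 0.471% to 1.18% in controls.

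Gphn (chr12:78226379-78684772, forward strand, ENSMUSG00000047454.12), the scaffold gene, differed least of the 5 genes that passed the filter. Its normalized counts were 1036, 946 and 1151 in Kir2.1-OE and 764, 835 and 828 in control libraries. The groups did not overlap, but the log2 fold change of 0.37 (SE 0.0932) was below the 1.5-fold threshold for a call. The spans of several noncoding genes and pseudogenes overlap that of Gphn in the annotation, so some of its reads may be shared with them. Overlap of exons was not examined.

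Nlgn2 (chr11:69823122-69837784, reverse strand, ENSMUSG00000051790.15) had normalized counts of 3777, 3348 and 3539 in Kir2.1-OE and 2255, 2560 and 2166 in control libraries. The groups did not overlap, and the log2 fold change of 0.61 (SE 0.0833), a ratio of 1.53 between the means, was just above the threshold. Nlgn2 fell below the threshold without Kir2.1-OE replicate 1 (0.55), without control replicate 3 (0.56) and with upper quartile scaling (0.52), and it turned to -0.13 with the length and GC correction.

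Gabra2 (chr5:70957597-71095849, reverse strand, ENSMUSG00000000560.9) was at the limit of detection. Its Kir2.1-OE libraries held 2, 1 and 2 reads and its control libraries 1, 4 and 0, in order of replicate number, 10 reads in all. The groups overlapped, the gene did not pass the filter, and no fold change is given. In control replicate 3, 0 of 37063812 reads allows a share of up to 8.09e-06% (3 counts, counting error only). A difference in Gabra2 was not detectable at this depth.

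**Figure D1:**
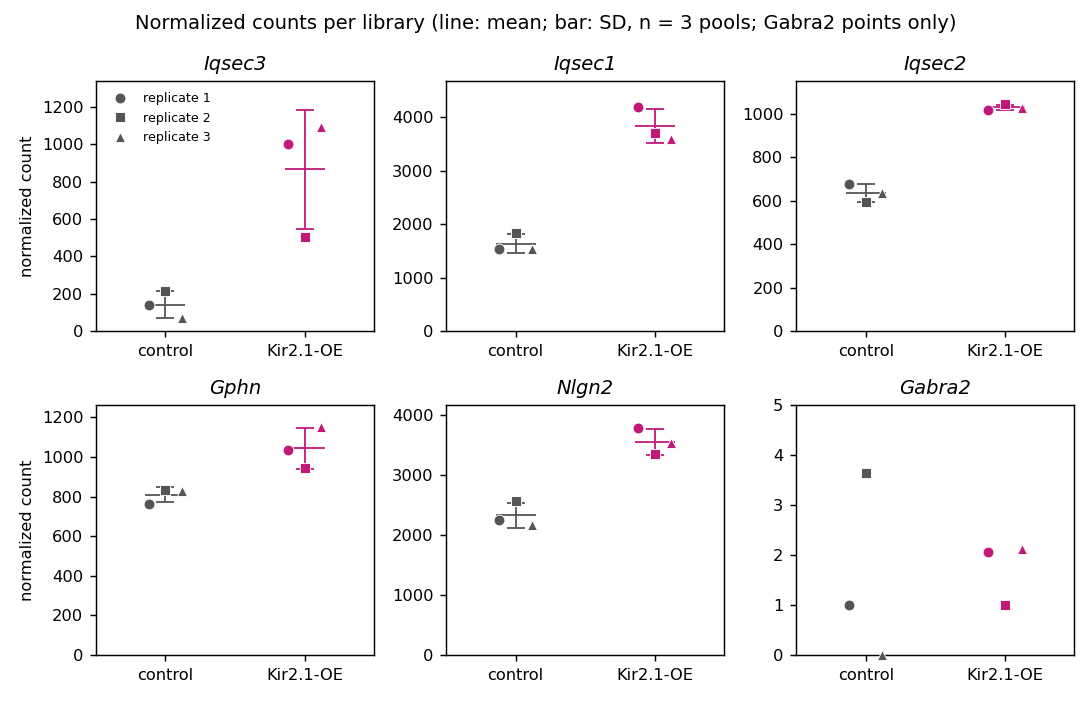
Normalized count of each of the 6 genes in the 3 control (grey) and 3 Kir2.1-OE (magenta) libraries, with linear axes that start at 0; lines and bars are the mean and SD, and Gabra2 is shown as points only. The groups are apart in the 5 genes other than Gabra2, Iqsec3 has the widest spread relative to its mean within Kir2.1-OE among these 5 (502 to 1091), and Gabra2 stays at a few reads.

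A gene was called when its adjusted p-value was under 0.05 and its fold change above 1.5. In Kir2.1-OE, 4 of the 6 were called higher (Iqsec1, Iqsec2, Iqsec3 and Nlgn2) and 0 lower, where 15.5% of all genes tested were called higher and 5.08% lower. All 5 genes that passed the filter had groups that did not overlap, as did 61.6% of all genes tested. Nothing is read from these counts, because the set was chosen on the same contrast. Over all genes tested, the log2 fold change had a median of 0.0096.

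The fold changes of 4 of the 5 genes depended on whether transcript length and GC content entered the fit. In an alternative fit, a smooth trend of each library on the length and GC content of the longest transcript was removed as an offset. With these offsets the log2 fold change was 1.82 (SE 0.355) for Iqsec3, and Iqsec3 alone of the 6 genes was called. It was 0.47 for Iqsec1, below the threshold. Iqsec2 changed sign to -0.08 and Nlgn2 to -0.13, whereas Gphn stayed at 0.33. The longest transcripts of Iqsec1 and Iqsec3 have 8036 and 8067 nt, those of Iqsec2 and Nlgn2 6017 and 5568 nt with 59.6% and 60.7% GC, and that of Gphn 3570 nt with 48.1% GC. Offsets lowered the number of all genes called higher from 2365 to 985. Whether the trend on length and GC content has a technical or a biological source was not tested.

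**Figure D2:**
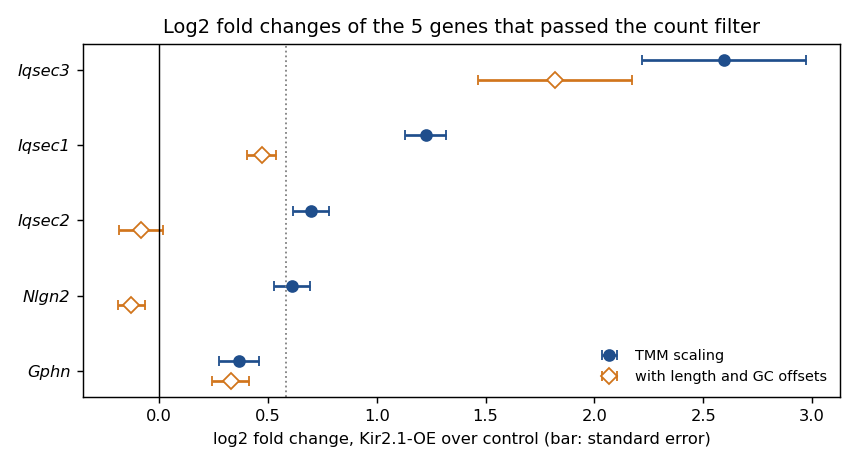
Log2 fold change of Kir2.1-OE over control for the 5 genes that passed the count filter, with TMM scaling alone (filled circles) and with length and GC offsets (open diamonds); bars are standard errors and the dotted line is the 1.5-fold threshold. Iqsec3 stays above the threshold at 1.82 with offsets, Iqsec2 and Nlgn2 move to just below 0, and Gphn differs little between the fits.

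Levels of different genes were compared as the normalized count per kb of the longest annotated transcript. In controls Nlgn2 was highest at 418 (range 389 to 460), followed by Gphn at 227 (214 to 234), Iqsec1 at 204 (190 to 229), Iqsec2 at 106 (98.6 to 112), Iqsec3 at 17.6 (8.83 to 26.4) and Gabra2 at 0.264 (0 to 0.621). The ranges of Gphn and Iqsec1 overlapped, so their order is not resolved, and the other neighbours were apart. Among the genes tested, the control level per kb of Nlgn2 stood at the 64.3 percentile, Gphn at 49.5, Iqsec1 at 47.0, Iqsec2 at 33.9 and Iqsec3 at 11.5. Iqsec3 was thus the least abundant exchange factor of the family in control cochleae and remained so in Kir2.1-OE. In Kir2.1-OE the levels per kb were 638 for Nlgn2, 476 for Iqsec1, 293 for Gphn, 171 for Iqsec2 and 107 for Iqsec3 (62.2 to 135), and no neighbours in this order overlapped. The place of Iqsec1 depends on the transcript assumed, because its annotated transcripts have a median length of only 771 nt. With the median transcript length its control level was 2122 per kb, the highest of the 6 genes.

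**Figure D3:**
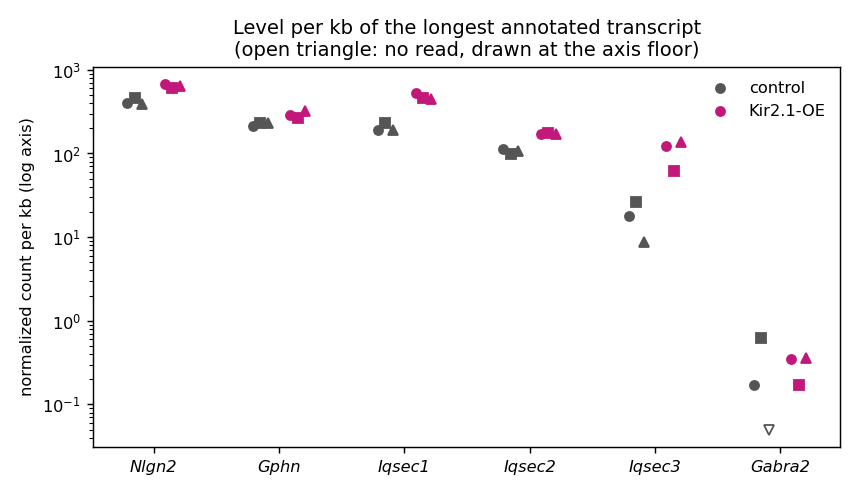
Normalized count per kb of the longest annotated transcript for the 6 genes in each library (control in grey, Kir2.1-OE in magenta; circles, squares and triangles are replicates 1, 2 and 3), on a log axis. In controls Iqsec3 lies between 8.83 and 26.4 per kb, below the other genes except Gabra2, which has no read in control replicate 3 (open triangle at the axis floor).

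The libraries hold the RNA of all cells in the dissected tissue, and in such bulk samples a change in the number of cells of a type and a change in RNA per cell cannot be told apart. Markers of other cell types were therefore read beside the 6 genes. The marker lists, and the related lists below, were chosen with earlier results of these data known. Adjusted p-values of their genes are given as a description and are no independent support. Of 10 spiral ganglion neuron markers, 6 were called higher and 0 lower, against 15.5% and 5.08% of all genes tested. None was at 0 in every library. Their summed normalized count ranged from 29404 to 65600 in Kir2.1-OE and from 18819 to 25266 in controls. Calb2 made up the largest part of this sum, with means of 16735 in Kir2.1-OE and 10431 in controls. Neurofilament genes were among the markers called higher. Nefl had normalized counts of 6943, 4298 and 10647 in Kir2.1-OE and 2284, 3217 and 1974 in controls (log2 fold change 1.55, adjusted p = 0.00217, edgeR). Nefm had a log2 fold change of 1.94 (adjusted p = 0.0017) and Snap25, a vesicle fusion protein gene, one of 1.10 (adjusted p = 0.0175). Rbfox3 (1.58), Ntrk3 (0.77) and Calb2 (0.68) were also called higher. Stmn2 (0.68), Tubb3 (0.38), Prph (0.14) and Gap43 (-0.12) overlapped between the groups and were not called. Iqsec3 ordered the 6 libraries exactly as Nefl, Nefm and Snap25 did, with Kir2.1-OE replicate 2 lowest of its group and control replicate 2 highest of the controls, an order shared by 261 of 13645 genes. The other 7 neuron markers did not give this exact order, and Spearman's rho with Iqsec3 over the 10 markers ranged from 0.0857 for Gap43 to 1.

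Once the genotype means were removed, the deviations of Iqsec3 over the 6 libraries had a Pearson r of between 0.55 (Gap43) and 0.93 (Nefm) with those of the 10 neuron markers, and of 0.86 with those of Nlgn2. With Iqsec1 r was 0.57, with Gphn 0.47, with Iqsec2 -0.42 and with Kcnj2 -0.38. The Kir2.1-OE pools of Iqsec2 differed little (coefficient of variation 1.23%), so no pattern among pools is read from its r. These 6 points come from the same libraries and are given without a test. The summed count of 4 IHC markers was 8635 to 10274 in Kir2.1-OE and 6807 to 7548 in controls. Of the 4, Otof alone was called (log2 fold change 0.76, and -0.09 with offsets). Tbx2 was at 0.32, Slc17a8 at 0.09 and Fgf8 at -0.32. The summed count of 5 markers shared by hair cells was 25283 to 28854 and 24555 to 28704. Of these, Myo7a was called higher (1.17) and Calb1 lower (-0.74), and only Calb1 was called with offsets (-0.62). The summed count of 5 glial markers was 350915 to 461474 against 255655 to 325821. That of 4 cartilage and bone markers was 642342 to 774065 against 286429 to 400153. Most of this sum was Col2a1, with means of 574259 and 283892, which was called higher but not with offsets. Acan was called higher in both fits, whereas Bglap and Ibsp overlapped between the groups and were not called. Of 3 erythrocyte markers, 2 were called lower, against 5.08% of all genes tested, and 0 were called lower with offsets. Their summed count was 7164 to 8772 against 10987 to 31055. The highest control value was that of replicate 1, with replicates 2 and 3 at 10987 and 12958. Summed counts of supporting cell markers (19966 to 23962 against 17288 to 19565) and macrophage markers (4041 to 4312 against 3111 to 3281) did not overlap between the groups either. Those of outer hair cell and fibrocyte markers did. Called higher were 1 of 5 glial, 2 of 5 supporting cell, 0 of 4 macrophage, 2 of 4 outer hair cell and 1 of 4 fibrocyte markers. The share over all genes tested was 15.5%. The part of these cell types in the values of the 6 genes was not tested.

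**Figure D4:**
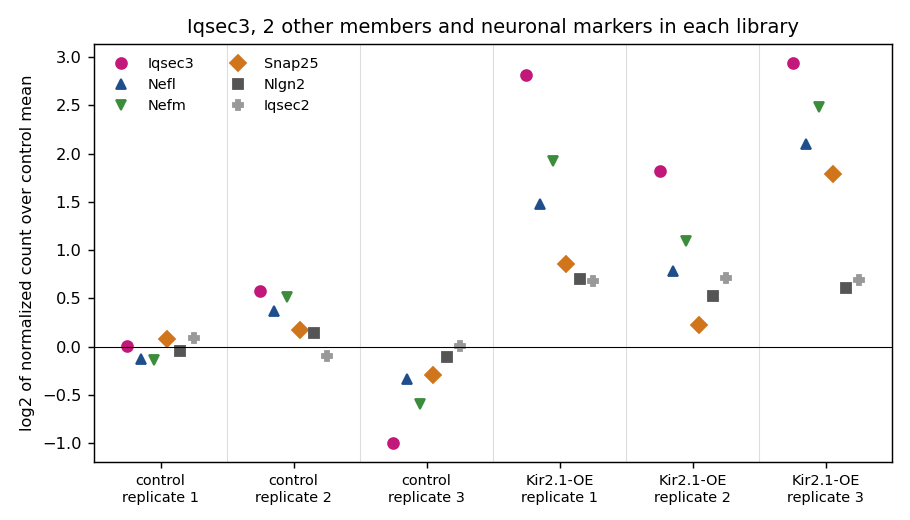
Log2 ratio of the normalized count in each library to the control mean, for Iqsec3, Nlgn2 and Iqsec2 and for 3 of the 10 neuron markers, Nefl, Nefm and Snap25. Iqsec3 and the 3 markers share their order of libraries, with Kir2.1-OE replicate 2 lowest in its group, whereas Iqsec2 is nearly level among the Kir2.1-OE libraries (1018 to 1043 normalized counts).

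Among genes that averaged 50 normalized counts or more, those most like Iqsec3 over the 6 libraries in log2 CPM (counts scaled to library size) were P2rx7, which encodes an ATP-gated cation channel, with a Pearson r of 0.9986, then Rgs12, the noncoding RNA genes Meg3 and Miat, and Slc8a1, which encodes a sodium-calcium exchanger. Likeness by deviations from the genotype means placed Dip2b first (r of 0.998), followed by Elavl3, which encodes a neuronal RNA-binding protein, Vash1, Meg3 and P2rx7. Since the groups lie apart for Iqsec3, high values are common on the first measure, and 1972 of 13645 genes (14.5%) had r above 0.9. Both lists hold the highest values among 13645 genes over only 6 libraries. A high r alone therefore does not show a link with Iqsec3. Of the nearest list Meg3 came closest in size, with a log2 fold change of 2.40 against 0.48 for P2rx7.

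The nearest protein-coding genes on both sides of Iqsec3 were also called higher. Slc6a12, which encodes a betaine and GABA transporter, lies 7158 bp away on the other strand. It had few reads, with normalized counts of 20.6 ± 4.21 in Kir2.1-OE and 7.65 ± 3.93 in controls (log2 fold change 1.40, adjusted p = 0.0254). A2m, which encodes the protease inhibitor alpha-2-macroglobulin, lies 161698 bp away and had a log2 fold change of 0.83 (adjusted p = 0.00527).

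The other genes of the inhibitory synapse set the 6 genes in context, though these lists too were chosen with earlier results known. Of 38 such genes that are no members, 28 were tested, and the median log2 fold change was 0.37. Of the 28, 9 (32.1%) were called higher and 2 lower, against 15.5% and 5.08% of all genes tested. With length and GC offsets 3 were called higher and 2 lower, where 985 and 523 of all 15303 genes tested were. Most of the calls fell among scaffold, adhesion and auxiliary proteins, where 7 of 15 (46.7%) were called higher and 0 lower. Mdga1, whose product binds neuroligin-2 and limits its contact with neurexins, had normalized counts of 5597, 3437 and 8120 in Kir2.1-OE and 1637, 1929 and 1041 in controls (log2 fold change 1.89, adjusted p = 0.000924). Its libraries stood in the same order as those of Iqsec3. Lhfpl4, a partner of GABA-A receptors and neuroligin-2, had a log2 fold change of 0.94 (adjusted p = 0.00356), and its relative Lhfpl3 one of 1.20 (adjusted p = 0.0144). The adhesion protein gene Igsf9b (1.22), the scaffold gene Magi2 (0.86), Shisa7 (0.67) and Insyn1 (0.65) were the other genes called. With offsets only Mdga1 (0.96) and Lhfpl3 (1.35) of the 7 were still called, and Clptm1 was called lower (-0.65).

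Receptor subunits showed no common direction. Of 18 GABA-A subunit genes other than Gabra2, 11 were tested, and the median log2 fold change was 0.22. Gabra4 was called lower, at 159 ± 12.3 against 238 ± 7.82 normalized counts, a log2 fold change of -0.59 (adjusted p = 0.00605) that lies at the threshold and was not called with offsets. Gabrd was called lower (-1.09, adjusted p = 0.0366) and Gabre higher (1.42, adjusted p = 0.0237), both from fewer than 50 normalized counts, and Gabre was not called with offsets. Per kb of the longest transcript, the alpha4 subunit gene Gabra4 was at 58.0 (56.0 to 59.7) in controls, whereas Gabra2 was at 0.264. The glycine receptor gene Glra3 was called higher (1.37, adjusted p = 0.0126), from a mean of only 45.8 normalized counts over all libraries. Glrb, which encodes the beta subunit bound by gephyrin, had a log2 fold change of 0.12 and was not called.

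Genes for the supply of GABA and glycine were mostly not called, with 2 of 11 tested (18.2%) higher and 0 lower. This share is near the 15.5% of all genes tested that were called higher. The 2 called were Slc6a12 and Slc12a5, which encodes the chloride exporter KCC2 (1.11, adjusted p = 0.0171). Slc12a5 had few reads, with a mean of 28.8 normalized counts over all libraries. With offsets Slc12a5 was at 0.36 and was not called. The vesicular transporter gene Slc32a1 had a mean normalized count of 1.05 in Kir2.1-OE and 0.642 in controls and was not tested. Of 5 GABA-B receptor genes tested, 1 (20%) was called higher, against 15.5% of all genes tested. It was Gabbr2, with normalized counts of 363, 213 and 518 against 112, 99.0 and 50.9 (log2 fold change 2.06, adjusted p = 0.00136).

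Among the ARF GTPase genes, whose products IQSEC proteins act on, 0 of 6 were called at the 1.5-fold threshold. Their median log2 fold change was -0.36, and 4 of the 6 had groups that did not overlap, as did 61.6% of all genes tested. Arf4 had the lowest value at -0.54 (adjusted p = 0.00139), and Arf6, the main target of IQSEC1, was at 0.01 (adjusted p = 0.888). Of 13 other Sec7 domain exchange factor genes, 3 were called higher, Arfgef1 (0.70), Arfgef2 (1.02) and Arfgef3 (1.18), and none of the 3 was called with offsets. Of the ARF and Sec7 genes together, 15.8% were called higher, near the 15.5% of all genes tested.

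Genes of the excitatory postsynapse and of other neuroligins and neurexins were counted for comparison. Of 24 tested, 10 (41.7%) were called higher, against 15.5% of all genes tested, and 0 lower. Their median log2 fold change was 0.47. Shank1 had the highest value at 1.79 (adjusted p = 0.000233), and the neuroligin gene Nlgn3 had 0.71 (0.05 and not called with offsets). With offsets 5 of these genes were called higher, where 985 of all 15303 genes tested were. Calls among synaptic genes were thus found in the inhibitory and in the excitatory list, and the difference between the lists was not tested.

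**Figure D5:**
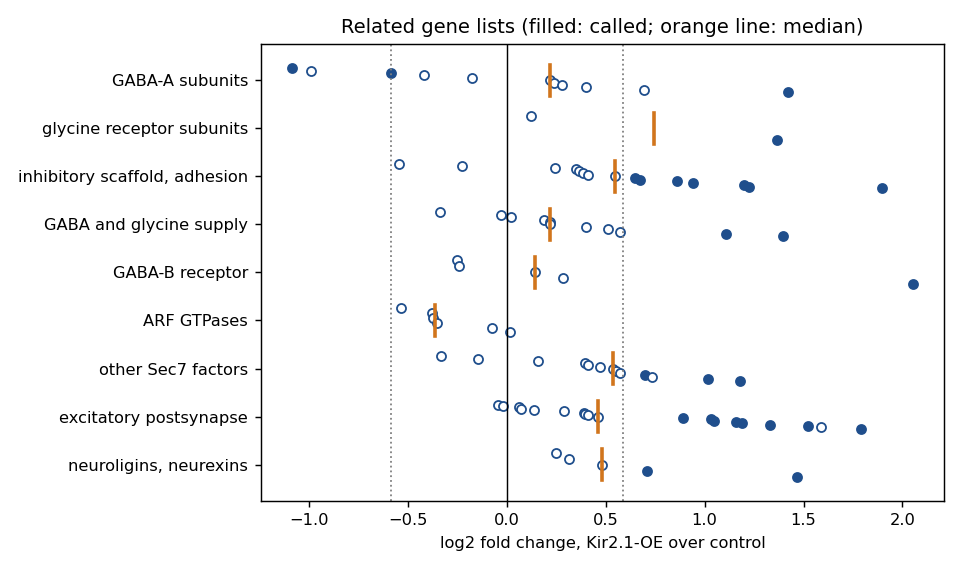
Log2 fold change of Kir2.1-OE over control for each tested gene of 9 related lists, none of them members; filled points are called, the orange line is the median of a list and dotted lines are the 1.5-fold threshold. Scaffold and adhesion genes reach 1.89, GABA-A subunits lie on both sides of 0, and the ARF GTPase genes have a median of -0.36 with no call.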

How the data were processed

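The authors microdissected the sensory epithelium of P9 cochleae, pooled it, enriched poly(A) RNA, sequenced it as paired reads, ran the nf-core RNA pipeline on mm10 and obtained gene counts from Salmon; tool versions, annotation and strand setting are not given in the sources used here. The deposited values are expected counts per gene symbol, with no division by length or depth. Of all values 6.95% were not whole, and all were rounded. Counts were tested with edgeR 4.0.16 in R 4.3.3, by TMM scaling, filterByExpr, its quasi-likelihood test with Benjamini-Hochberg adjustment over 15303 genes, in all 6 libraries without covariates. Genes were called at an adjusted p under 0.05 and a fold change above 1.5. Groups and replicate numbers came from the sample labels, and p-values measure the spread between pools.

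Of 24411 symbols, 23379 were matched to GENCODE vM21 (mm10) by symbol, 678 by an older symbol and 354 not at all. Insyn1 is listed in the files under an older symbol. Length and GC offsets came from a loess trend (span 0.4). Log2 CPM used a prior count of 2. The fit was first tested on simulated counts with known changes. Named were the 6 genes, called genes of the related lists and those averaging 50 normalized counts or more, the neighbours of Iqsec3, the 5 genes most like Iqsec3 on each measure, Kcnj2 and cell type markers. Some genes of the lists are counted but not reported here by name. Slc32a1 was named after its values were seen. The members and lists were chosen with earlier results of these data known. Alternatives were DESeq2 1.42.0 size factors and its Wald test, upper quartile scaling, no filter, at least 10 counts in every library, the replicate number as a block, the offsets with and without that block, each library left out, glmTreat against a log2 fold change of 0.6, the median transcript length and Spearman's rho.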

Additional observations from a re-analysis of the deposited data

How the results depend on the processing

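The direction of Iqsec3, Iqsec1 and Gphn was the same in every fit tried, and the log2 fold change of Iqsec3 ranged from 1.80 to 3.01. With length and GC offsets, Iqsec2 turned to -0.083 and Nlgn2 to -0.127. Genes called higher then numbered 985 of all genes, 1 of the members (Iqsec3), 3 inhibitory synapse genes, 0 ARF and Sec7 genes, and 5 excitatory postsynapse and adhesion genes. By glmTreat at 0.6, the calls came to 832 higher and 57 lower over all genes, and 2 members, 1 inhibitory synapse gene, 1 gene of the supply and GABA-B lists and 6 excitatory postsynapse and adhesion genes were higher. No inhibitory synapse gene was then lower (0).

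Upper quartile scaling shifted the median of all genes by -0.09 and gave 1897 genes called higher and 1378 lower, with 3 members higher, 3 inhibitory synapse genes lower and 1 ARF or Sec7 gene lower. Inhibitory synapse genes called lower numbered 0 with no filter, and 1 with at least 10 counts in every library and with DESeq2's Wald test. With 1 library left out, they numbered 0 (without control replicate 3) to 2, supply and GABA-B genes called higher 1 (without Kir2.1-OE replicate 1 or control replicate 1) to 4, and ARF and Sec7 genes called lower 0 to 1 (without Kir2.1-OE replicate 2 or 3). With the median transcript length, control levels per kb were 2122 for Iqsec1, 121 for Iqsec2, 245 for Gphn, 804 for Nlgn2 and 0.634 for Gabra2. Apart from the construction of these fits, the cause was not tested.

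Deviations of same-numbered pools of the 2 genotypes correlated at -0.106, -0.232 and -0.213, and those of pools with different numbers at 0.006 to 0.200. Deviations from the mean of only 3 libraries depend on each other, so these values do not settle whether pools were paired. The replicate number was used as a block only as an alternative. With the replicate number as a block, 4 members were called higher, 2220 genes higher and 718 lower, and 1 inhibitory synapse gene was lower. The block with offsets gave 799 genes higher and 444 lower, with 1 member, 2 inhibitory synapse genes, 1 supply or GABA-B gene, 0 ARF and Sec7 genes and 4 excitatory postsynapse and adhesion genes higher, 1 inhibitory synapse gene lower, Iqsec2 at -0.080 and Nlgn2 at -0.127.

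Depth limits Gabra2 and the other genes with a few reads per library. Pools hide the spread between mice.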
